A study of Mus musculus with 72 samples.

Results

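The kappa light chain variable (V) segments were taken as every gene symbol that starts with Igkv in the 4 deposited count tables, which gave 104 of the 38949 symbols listed. The tables hold RNA-seq counts of Eμ-Myc B lymphomas, mouse tumours that carry a Myc transgene driven by the heavy chain enhancer, in 72 libraries. In the acute study, C57BL/6 mice bearing lymphoma clone 4242, which carries the retroviral marker MSCV Gfp, were treated on day 10 after transplant for 2 h with CX5461 (35 mg/kg), everolimus (5 mg/kg), the combination of both at those doses, or vehicle (6 mice per group). In the relapse study, lines of clone 107, which also carries MSCV Gfp, were grown for 2 to 3 passages from lymph nodes of mice that had succumbed under CX5461, everolimus, the combination, or vehicle (3 lines per group, the vehicle lines being called drug-naive). CX5461 inhibits transcription by RNA polymerase I, and everolimus inhibits the kinase mTOR. From each mouse or line, a library of cytoplasmic RNA (input) and a library of polysomal RNA were sequenced, the second from the pooled gradient fractions with 4 or more ribosomes per mRNA. Each study rests on a single clone, so clone and study cannot be told apart. The labels do not name the tissue taken from the acute mice.

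A kappa light chain is encoded by 1 V segment joined to a J segment and spliced to the constant exon Igkc, and the recombinase subunits Rag1 and Rag2 carry out the joining in developing B cells. The V segment gives most of the variable domain, and the join forms the third complementarity-determining loop, which starts just after a conserved cysteine near the end of the V segment. Because a B cell normally expresses 1 productive kappa join, and its daughters inherit that join, the V segment that dominates the kappa RNA of a tumour is commonly used as a mark of its clone. Segments of a subfamily (the number before the hyphen) are similar in sequence.

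Of the 104 segments, 96 are annotated as V genes and 8 as V pseudogenes in GENCODE M21 (GRCm38), which holds 160 Igkv genes and pseudogenes on chromosome 6. They lie on both strands, 40 on the plus and 64 on the minus strand. The 5 segments that led a relapse line and the leading and second segment of the acute libraries carry most of the findings, and the last 140 coding bases of each are printed below from the GENCODE M21 transcripts. Capitals run from the codon of the conserved cysteine to the end of the V segment, the stretch that enters the third loop.

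Igkv1-117 (chr6:68121688-68121827, plus strand): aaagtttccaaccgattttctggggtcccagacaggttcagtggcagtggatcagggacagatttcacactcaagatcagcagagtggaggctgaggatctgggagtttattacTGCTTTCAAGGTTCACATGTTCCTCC
Igkv5-43 (chr6:69823355-69823494, minus strand): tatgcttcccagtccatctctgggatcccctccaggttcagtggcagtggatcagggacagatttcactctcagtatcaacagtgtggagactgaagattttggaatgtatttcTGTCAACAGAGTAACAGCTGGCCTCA
Igkv4-53 (chr6:69648824-69648963, minus strand): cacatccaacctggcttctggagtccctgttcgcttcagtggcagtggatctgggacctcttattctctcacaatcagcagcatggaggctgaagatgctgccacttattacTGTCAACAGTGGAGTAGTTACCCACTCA
Igkv4-57-1 (chr6:69544359-69544498, minus strand): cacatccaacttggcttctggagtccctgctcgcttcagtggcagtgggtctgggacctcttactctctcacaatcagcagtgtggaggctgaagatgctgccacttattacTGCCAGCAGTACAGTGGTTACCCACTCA
Igkv4-79 (chr6:69042972-69043111, minus strand): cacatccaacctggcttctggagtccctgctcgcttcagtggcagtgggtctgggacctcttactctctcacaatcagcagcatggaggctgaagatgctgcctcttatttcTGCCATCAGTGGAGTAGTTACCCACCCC
Igkv3-4 (chr6:70672238-70672377, plus strand): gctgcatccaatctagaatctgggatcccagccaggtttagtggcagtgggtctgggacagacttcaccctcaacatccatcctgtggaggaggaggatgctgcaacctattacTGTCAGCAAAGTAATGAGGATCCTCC
Igkv12-46 (chr6:69764523-69764662, minus strand): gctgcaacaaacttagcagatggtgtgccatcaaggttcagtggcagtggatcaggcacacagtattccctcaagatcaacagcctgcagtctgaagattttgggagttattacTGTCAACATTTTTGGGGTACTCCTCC

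The stretches show the close likeness of the 3 segments of subfamily 4. Over their whole annotated transcripts, the 3 subfamily 4 segments were 88.2% to 89.4% identical to each other. Counts can hold reads of related segments, since a 50-base read may fit several of them. Of all 50-base windows of Igkv1-117, 50.1% occurred in no other Igkv transcript, against 48.8% for Igkv5-43, 60.4% for Igkv4-53, 71.0% for Igkv4-57-1, 44.7% for Igkv4-79, 65.9% for Igkv3-4 and 90.2% for Igkv12-46. The closest relatives were Igkv1-110 for Igkv1-117 (96.8% identity), Igkv5-45 for Igkv5-43 (96.9%) and Igkv4-78 for Igkv4-79 (96.4%), and their counts are read with that limit. Over the 104 segments the median was 78.1%, and 90 segments had at least 50% of their windows to themselves.

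Library totals ranged from 17.1 M to 24.7 M counts in acute input, 11.5 M to 20.9 M in acute polysomal, 14.6 M to 26.02 M in relapse input and 15.5 M to 30.4 M in relapse polysomal RNA. The acute input table lists 104 Igkv segments and each of the others 100; 104, 100, 97 and 95 of them had a count in acute input, acute polysomal, relapse input and relapse polysomal RNA, and 53, 46, 31 and 46 passed the filter on low counts and were tested. The B cell markers Cd79a and Pax5 were counted in every group. Several libraries stand apart. In acute input, Gm26870 and Gm10800 together reached 23.3% and 15.0% of all counts in CX5461 mice 4 and 6, and 18.4% in everolimus mouse 2. Lars2 and Yam1 took 26.2%, 19.8% and 10.1% of the polysomal counts of vehicle mice 2, 5 and 6, and 10.8% of those of CX5461 mouse 6. Polysomal libraries of CX5461 lines 14 and 39 had no count of Ighd, the IgD heavy chain gene, while their input libraries had 354 and 232.

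The relapse lines differed in the segment that led their kappa counts. In input RNA, Igkv4-53 led CX5461 lines 14 and 39 with 51.2% (95% Wilson interval 48.9 to 53.5) and 42.0% (39.7 to 44.4) of all Igkv counts, and Igkv5-43 led CX5461 line 20 with 65.9%. Among everolimus lines, Igkv1-117 led line 4 with 45.7%, Igkv4-57-1 led line 12 with 65.4% and Igkv5-43 led line 26 with 40.0%. Among combination lines, Igkv4-79 led lines 8 and 9 with 38.97% and 35.7%, and Igkv5-43 led line 31 with 53.6%. All 3 naive lines were led by Igkv1-117, which held 59.3%, 75.1% and 77.2% of the Igkv counts of lines 6, 33 and 38. Each drug group held at least 2 leading segments, the naive group held 1, and 5 segments led the 12 lines. The intervals of the leading shares were at most 5.37 percentage points wide; like all such intervals here they cover counting error only.

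Polysomal RNA gave the same leader in 12 of 12 lines. Polysomal shares were 52.0%, 63.1% and 48.8% in CX5461 lines 14, 20 and 39, and 36.0%, 60.3% and 39.9% in everolimus lines 4, 12 and 26. They were 30.5%, 32.4% and 39.8% in combination lines 8, 9 and 31, and 52.4%, 76.3% and 79.8% in naive lines 6, 33 and 38. The leader was also unchanged per kilobase of transcript in all 24 libraries. Each input library was most like the polysomal library of its own line, in 12 of 12 lines, when the Igkv profiles were compared.

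**Figure D1:**
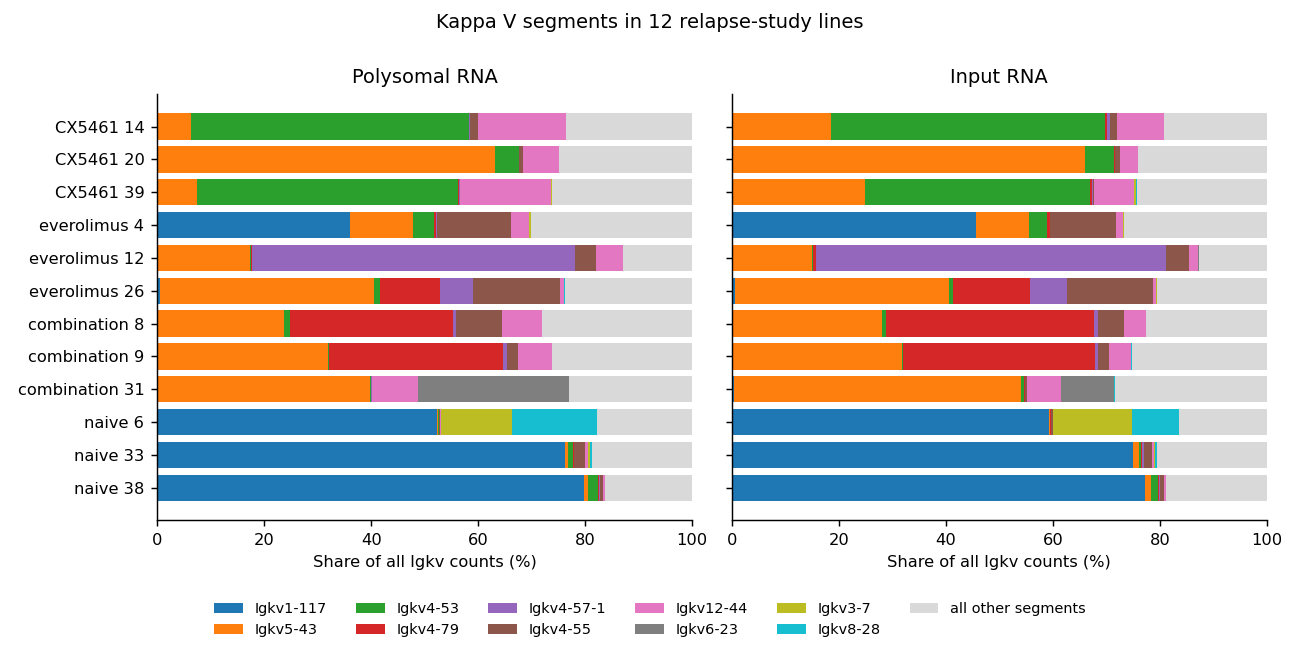
Share of all Igkv counts (percent, horizontal axis) held by 10 named segments and by all others, 1 bar per relapse line, in polysomal RNA (left) and input RNA (right), with CX5461, everolimus and combination lines above the naive lines. The 3 naive bars are filled mostly by Igkv1-117, from 59.3% to 77.2% in input RNA, and of the drug lines everolimus line 4 alone has it as the leader.

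Some lines shared a profile. Over the Igkv counts, combination lines 8 and 9 differed with a chi-square per degree of freedom of 3.23, naive lines 33 and 38 with 3.29, and CX5461 lines 14 and 39 with 4.35, where 1 would be counting noise alone. The median over all 66 pairs of lines was 93.2. Over all genes the same pairs, in that order, were at 65.6, 97.6 and 44.3, against a median of 99.0. There they ranked 12, 32 and 4 of the 66 pairs, so the likeness of naive lines 33 and 38 was in Igkv. The labels name them as separate lines, and each was kept as its own replicate; the chi-square does not tell whether they share a source. These 3 pairs and everolimus line 12 also form the first of 2 runs of columns in the input table (a run ends where the alphabetical order of the group names starts again), and what such a run stands for is not given in the labels. In the polysomal table, which has 3 runs, combination lines 8 and 9 are in different runs. Naive lines 33 and 38 share a run there, as do CX5461 lines 14 and 39. The same 3 pairs were again the closest over Igkv, at 12.4 for combination lines 8 and 9, 7.42 for CX5461 lines 14 and 39 and 6.67 for naive lines 33 and 38. Over all genes they were at 40.4, 21.4 and 45.0, against a median of 104. The labels do not say that each line came from a separate mouse, so p-values below measure the spread between these lines.

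The second segments set some lines further apart. In naive line 6, Igkv3-7 held 14.7% and Igkv8-28 8.84% of the input counts, 837 and 502 counts; Igkv3-7 had 13 and 3 counts, and Igkv8-28 10 and 1, in naive lines 33 and 38. In CX5461 line 20, Igkv10-96 held 7.68% of the input and 11.2% of the polysomal counts, and its highest count in any other line was 11 in input RNA. In combination line 31, Igkv6-23 held 9.77% of the input and 28.2% of the polysomal counts (129 and 1764 counts), against 0 in combination lines 8 and 9 in both fractions. Igkv4-55 held 12.2% and 16.2% of the input counts in everolimus lines 4 and 26 and 4.20% in line 12. Between 6 and 12 segments held at least 1% of the Igkv counts of a relapse line in input RNA.

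The leading segments lie far apart along the locus. Measured upstream of Igkj1, the first J segment, Igkv5-43 lies at 899 kb, Igkv4-53 at 1074 kb, Igkv4-57-1 at 1178 kb, Igkv4-79 at 1680 kb and Igkv1-117 at 2602 kb. Counted from the J segments among the segments measured, they stand 35th, 42nd, 47th, 61st and 88th of 104. The leader of the naive lines is the farthest of these from the J segments, and all 4 of the others, which led drug lines, lie nearer. With 5 leading segments this is a description of their places only.

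**Figure D2:**
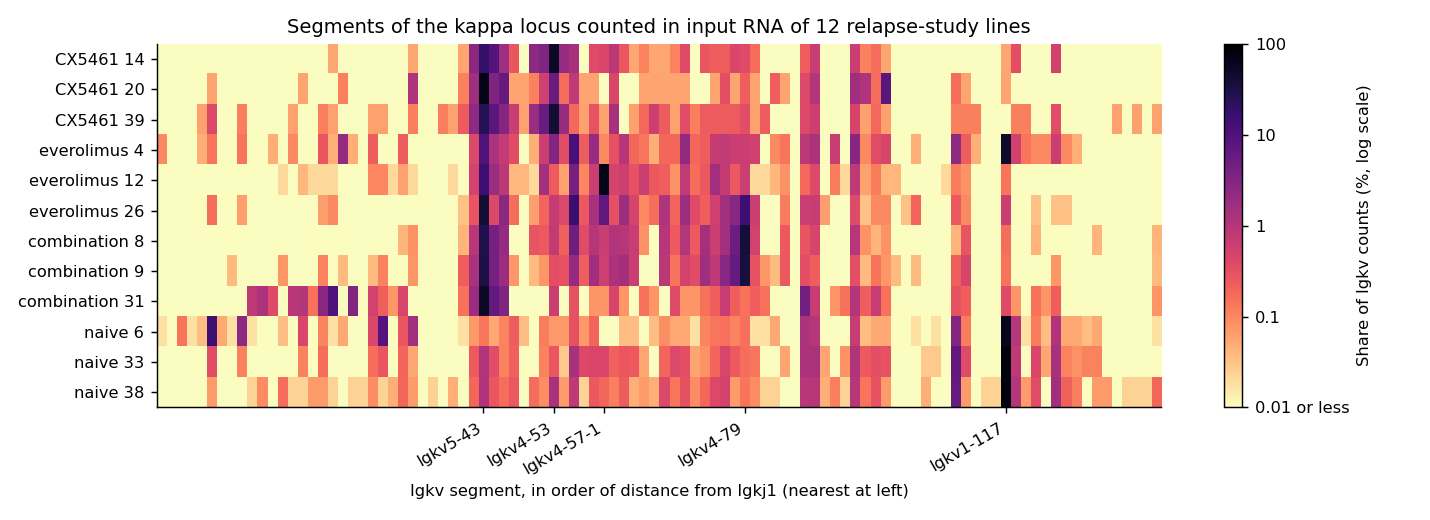
Share of all Igkv counts in input RNA (percent, colour on a log scale) for the listed Igkv segments, ordered along the horizontal axis by distance from Igkj1 with the nearest at the left, 1 row per relapse line, drug lines above naive lines. The darkest cell of each naive line is Igkv1-117, and those of the drug lines other than everolimus line 4 lie from Igkv5-43 to Igkv4-79.

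Igkv1-117, the naive leader, was nearly absent from CX5461 and combination lines. In input RNA it had 1, 1 and 0 counts in CX5461 lines 14, 20 and 39, 978, 7 and 19 in everolimus lines 4, 12 and 26, 4, 4 and 5 in combination lines 8, 9 and 31, and 3370, 2733 and 3326 in naive lines 6, 33 and 38. The CX5461 and combination lines lie far below every naive line, and everolimus line 4 lies between them and the naive lines. Per library total, Igkv1-117 was 5124-fold lower in CX5461 than in naive lines (95% counting interval 1418 to 42318; 2 against 9429 counts) and 805-fold lower in combination than in naive lines (471 to 1513; 13 against 9429 counts). Both differences passed edgeR's quasi-likelihood test with Benjamini-Hochberg adjustment over all genes (adjusted p = 0.00659 and 0.00631). For everolimus the fitted log2 fold change was -2.67 (adjusted p = 0.137). Without everolimus line 4, the one with 978 counts, it was -7.72. That line is singled out by its count, so no p-value is read from this fit.

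Igkv5-43 showed the opposite order and did so in every drug line. It had 333, 1167 and 419 input counts in CX5461 lines 14, 20 and 39, 211, 735 and 1245 in everolimus lines 4, 12 and 26, 676, 859 and 708 in combination lines 8, 9 and 31, and 8, 40 and 48 in naive lines 6, 33 and 38. The lowest drug line, CX5461 line 14 with 14.1 CPM (the count scaled to 1 M counts in genes), lay above the highest naive line with 2.15 CPM. The log2 fold change against naive was 4.42 ± 0.79 (SE; adjusted p = 0.00688) for CX5461, 4.77 ± 0.80 (adjusted p = 0.0109) for everolimus and 4.57 ± 0.79 (adjusted p = 0.00475) for the combination, in edgeR's test. These 3 comparisons share the same 3 naive lines, so they are not independent of each other. Each of these 3 calls held when any 1 line of its 2 groups was left out (adjusted p at most 0.0423).

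Counts of Igkv5-45, the nearest relative of Igkv5-43, followed it and may hold some of its reads. Its input log2 fold changes were 3.52 ± 0.70, 3.35 ± 0.70 and 3.10 ± 0.70 (SE) for CX5461, everolimus and combination against naive. All 3 passed edgeR's test (adjusted p = 0.0111, 0.0191 and 0.0146), and the calls were lost without naive line 33 for CX5461, without naive line 6 or everolimus line 12 or 26 for everolimus, and without naive line 6 or 33 for the combination. Igkv12-44 was a segment that led no line yet was higher in each drug group. It had 159, 59 and 126 input counts in CX5461 lines, 27, 92 and 13 in everolimus lines, 100, 112 and 85 in combination lines, and 3, 13 and 12 in naive lines. Every CX5461 and combination line lay above the naive lines, and everolimus line 26 with 0.807 CPM lay just above the highest naive line with 0.674 CPM. Its log2 fold changes were 3.51 ± 0.59 (adjusted p = 0.00528), 2.36 ± 0.59 (adjusted p = 0.0286) and 3.41 ± 0.59 (adjusted p = 0.00468) in edgeR's test, and the everolimus call was lost without everolimus line 12, naive line 6 or naive line 38.

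The other leading segments were each high in 1 or 2 lines of a group. Igkv4-53 had 920, 97 and 705 input counts in CX5461 lines 14, 20 and 39, against 4, 10 and 56 in naive lines, a log2 fold change of 4.51 ± 0.97 (adjusted p = 0.0159) that lost its call without CX5461 line 14 (adjusted p = 0.0707) or naive line 33. Igkv4-79 had 945, 971 and 2 input counts in combination lines 8, 9 and 31, against 9, 6 and 6 in naive lines. Combination line 31 lay below every naive line, and the call of Igkv4-79 (log2 fold change 6.48 ± 1.71, adjusted p = 0.0283) was lost in 5 of 6 fits that left out 1 line. Igkv4-57-1 had 2, 3252 and 216 input counts in everolimus lines 4, 12 and 26, against 0, 16 and 8 in naive lines. Everolimus line 4 lay within the naive range, and the call (7.09 ± 1.68, adjusted p = 0.024) was likewise lost in 5 of 6 such fits.

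**Figure D3:**
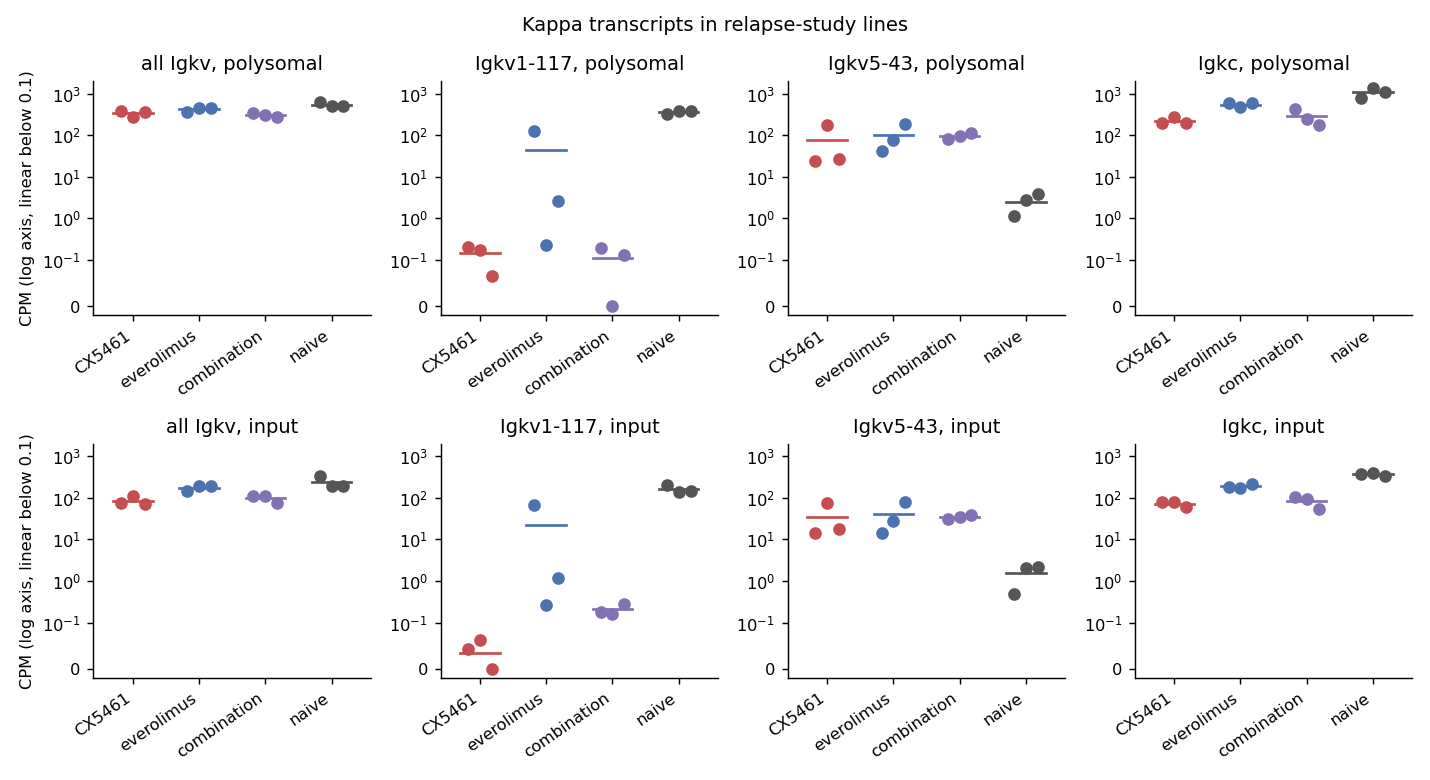
Levels of all Igkv segments summed, Igkv1-117, Igkv5-43 and Igkc in CPM on a log axis that is linear below 0.1, 1 point per line with a bar at the group mean, in polysomal RNA (top) and input RNA (bottom). Igkv1-117 is high in the 3 naive lines and in everolimus line 4, and Igkv5-43 is lower in the naive lines than in any of the 9 drug lines.

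Across the locus in relapse input RNA, 10 of 31 tested segments passed the threshold (adjusted p under 0.05) for CX5461 against naive, 5 higher and 5 lower, against 8.37% of all genes tested (4.61% higher, 3.76% lower). For everolimus 6 of 31 passed, 5 higher and 1 lower, against 11.7% of all genes (6.25% higher, 5.46% lower); with the run of columns as a term 17 passed, against 30.4% of all genes. For the combination 12 of 31 passed, 6 in each direction, against 13.5% (7.20% higher, 6.31% lower). The median log2 fold change of the tested segments was -1.29 for CX5461, 1.55 for everolimus and 0.68 for the combination, where all genes had medians of -0.03, -0.01 and -0.02. A segment passes the filter on low counts where at least 1 group of lines holds it at some level, so segments that passed are not a sample of the 104. Besides those described, Igkv12-41 rose for CX5461 (log2 fold change 2.42 ± 0.41) and the combination (1.94 ± 0.41), Igkv4-55 rose for everolimus (3.52 ± 0.87) and Igkv4-78, the nearest relative of Igkv4-79, rose for the combination (3.96 ± 1.17). Among those that fell, Igkv1-110, the nearest relative of Igkv1-117, fell in all 3 drug groups, by 2.91 ± 0.75 on the log2 scale for everolimus; it had 5 counts in CX5461, 11 in combination and 698 in naive lines. Igkv12-89 fell by 1.80 ± 0.45 for CX5461 and by 2.42 ± 0.47 for the combination. Igkv9-120 and Igkv1-88 fell for CX5461, and Igkv9-120, Igkv9-124 and Igkv12-46 for the combination; the calls of Igkv1-88 and Igkv9-120 for CX5461, of Igkv12-46 for the combination and of Igkv4-55 for everolimus were lost whichever line was left out. Those of Igkv4-78 for the combination, of Igkv12-89 for CX5461 and of Igkv1-110 for everolimus were lost in 5 of 6 such fits, and those of Igkv9-120 and Igkv9-124 for the combination without combination line 8 or 9.

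In relapse polysomal RNA, 15 of 46 tested segments passed for CX5461 (7 higher, 8 lower), against 19.5% of all genes (11.4% higher, 8.08% lower). For everolimus 1 of 46 passed, higher, against 0.115% of all genes (0.0946% higher, 0.0203% lower). For the combination 11 of 46 passed (5 higher, 6 lower), against 10.0% (4.78% higher, 5.22% lower). Medians of the tested segments were -0.57, 1.62 and 0.69 on the log2 scale, where all genes had -0.05, 0.00 and 0.02. Igkv5-43 had 600, 3992 and 801 polysomal counts in CX5461 lines 14, 20 and 39, 684, 2022 and 3164 in everolimus lines 4, 12 and 26, 1274, 1946 and 2489 in combination lines 8, 9 and 31, and 25, 51 and 62 in naive lines 6, 33 and 38. As in input RNA, no drug line overlapped the naive lines. Its log2 fold change was 4.95 ± 0.95 (adjusted p = 0.0108) for CX5461, 5.35 ± 0.97 (adjusted p = 0.0797) for everolimus and 5.35 ± 0.97 (adjusted p = 0.00892) for the combination, by edgeR's test; the CX5461 call was lost without naive line 33 (adjusted p = 0.0541). Only Igkv5-45 passed for everolimus (4.22 ± 0.65, adjusted p = 0.0493), a call lost in 5 of 6 fits that left out 1 line, and 24 of 46 segments had an unadjusted p under 0.05 there, against 8.54% of all genes. With the run of columns as a term, 11 segments passed for everolimus (3.64% of all genes).

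Igkv1-117 had 5, 4 and 2 polysomal counts in CX5461 lines, 2092, 6 and 46 in everolimus lines 4, 12 and 26, 3, 0 and 3 in combination lines, and 7078, 7236 and 6434 in naive lines. Per library total it was 2568-fold lower in CX5461 than in naive lines (95% counting interval 1435 to 5145) and 3516-fold lower in combination than in naive lines (1615 to 9582), and both passed edgeR's test (adjusted p = 0.0104 and 0.0116). The combination call was lost without combination line 9 or 31. Igkv12-44 reached 1587, 428 and 1830 polysomal counts in CX5461 lines 14, 20 and 39, against 11, 55 and 20 in naive lines, a log2 fold change of 4.91 ± 0.79 (adjusted p = 0.00573). It rose by 4.01 ± 0.76 for the combination (adjusted p = 0.0109, lost without naive line 38) and had 3.03 ± 0.74 for everolimus (adjusted p = 0.211). Igkv12-41 rose by 3.74 ± 0.52 for CX5461 and by 3.69 ± 0.52 for the combination, and both calls held in all 6 fits that left out 1 line. Igkv5-45 rose by 4.42 ± 0.66 for CX5461 and by 4.07 ± 0.65 for the combination, and both calls also held. Other segments that rose were Igkv4-53 (4.72 ± 1.40), Igkv5-48 (4.65 ± 1.19) and Igkv4-62 (4.68 ± 1.45) for CX5461 and Igkv4-72 (4.65 ± 1.13) for the combination, each lost in 5 of 6 fits. Igkv3-7, with 15 counts in CX5461 and 1 in combination lines against 1840 in naive lines, fell in both, but 1810 of the naive counts were from line 6. Igkv1-110 and Igkv9-120 fell in both as well, with 9 and 22 counts of Igkv1-110 in CX5461 and combination lines against 1602 in naive lines; Igkv9-124 fell for CX5461 and Igkv1-122 for both, and of these calls that of Igkv1-110 for CX5461 alone held in every fit. Igkv12-89 fell by 2.90 ± 0.54 for CX5461, a call that held in all 6 fits, and by 1.90 ± 0.51 for the combination, a call lost in all 6. Igkv1-88 fell by 2.53 ± 0.68 for CX5461 and lost its call in 4 of 6. Without CX5461 lines 14 and 39, whose polysomal libraries stand apart, line 20 is the only CX5461 library left, and it is assumed to vary like the other groups. Then 5 segments passed for CX5461 (3.41% of all genes), and Igkv4-62 was at -0.85, a value of line 20 alone.

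Kappa RNA as a whole was lower in the CX5461 and combination lines than in naive lines. In everolimus lines the ranges lay lower for Igkc and in polysomal RNA, but not for summed input counts. Summed Igkv input counts came to 69.4, 76.0 and 112 CPM over the CX5461 lines, 147, 191 and 193 over the everolimus lines, 73.4, 108 and 111 over the combination lines and 189, 193 and 338 CPM over the naive lines. No CX5461 or combination line reached the lowest naive line in this measure, and the everolimus and naive ranges overlapped. Igkc, the kappa constant exon that every kappa transcript shares, had 58.9 to 79.8 CPM in CX5461, 169 to 216 in everolimus, 52.8 to 105 in combination and 330 to 402 CPM in naive lines. Its log2 fold changes were -2.28 ± 0.27 (adjusted p = 0.000955), -0.77 ± 0.26 (adjusted p = 0.0682) and -1.93 ± 0.26 (adjusted p = 0.00188) by edgeR's test. In these bulk libraries, fewer cells with kappa RNA and less kappa RNA per cell cannot be told apart. Summed Igkv counts per Igkc count were 0.952 to 1.41 in CX5461, 0.806 to 1.13 in everolimus, 1.06 to 1.39 in combination and 0.470 to 0.900 in naive lines. Polysomal RNA had 280 to 384, 353 to 461 and 281 to 347 CPM of summed Igkv in CX5461, everolimus and combination lines. Naive lines had 489 to 615 CPM there. Polysomal Igkc stood at 191 to 280, 468 to 589 and 176 to 432 CPM, against 767 to 1331 CPM in naive lines. The everolimus lines lay below every naive line in both polysomal measures and in input Igkc.

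Other genes of light chain biology were read beside the segments. Rag1 had 63.7 to 116 CPM in CX5461, 19.7 to 38.6 in everolimus, 56.3 to 61.8 in combination and 5.65 to 8.44 CPM in naive lines in input RNA, and it rose in all 3 comparisons (log2 fold changes 3.56 ± 0.30, 2.21 ± 0.28 and 3.17 ± 0.29; adjusted p = 0.000134, 0.00631 and 0.00024 by edgeR's test). Rag2 had 399, 328 and 496 input counts in CX5461 lines 14, 20 and 39. Everolimus lines 4, 12 and 26 had 112, 190 and 157, and combination lines 8, 9 and 31 had 183, 331 and 311. Naive lines 6, 33 and 38 had 162, 78 and 123 counts of Rag2. Scaled to library totals, every CX5461 line lay above the naive lines in Rag2. Everolimus lines 4 and 12 and combination line 8 lay within the naive range. Igkj1 had 0 to 2 input counts in CX5461, 0 to 4 in everolimus, 0 in combination and 6, 15 and 11 counts in naive lines. The lambda constant gene Iglc2 fell for CX5461 (log2 fold change -3.74 ± 0.75, adjusted p = 0.0117) and had 0.42 ± 0.61 for everolimus (adjusted p = 0.657) and -1.36 ± 0.64 for the combination (adjusted p = 0.171). Of the T cell markers, Trbc2 was at 0 in all 4 groups and Cd3e at 0 in CX5461 and combination lines. The summed T cell list stood at 59.9 to 99.6 CPM in CX5461 and 71.8 to 83.8 in everolimus lines. It stood at 71.3 to 96.4 in combination and 67.1 to 83.0 CPM in naive lines. Most of this sum was Cd2, with 1505 input counts in CX5461 line 20 and 1279 in naive line 6. In CX5461, everolimus, combination and naive lines, 11, 9, 11 and 11 of the 13 genes averaged under 1 CPM. The sum is therefore not read as T cell content. The summed myeloid list stood at 5.30 to 5.92 CPM in CX5461 and 5.00 to 8.07 in everolimus lines. It stood at 5.93 to 6.61 in combination and 6.71 to 8.74 CPM in naive lines. CX5461 and combination lines lay below the naive lines in this sum, which is near the floor. In CX5461, everolimus, combination and naive lines, 8, 7, 7 and 7 of its 9 genes averaged under 1 CPM. Most of it was Itgam, with 115 input counts in CX5461 line 14 and 94 in naive line 6. The part of other cells in these kappa levels was not tested.

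In the acute study 1 segment led throughout. Igkv3-4, which lies 50.8 kb upstream of Igkj1 and is the fourth segment from it, held the most Igkv counts in 48 of 48 libraries, and Igkv12-46, at 958 kb, came second. The lowest, median and highest input share of Igkv3-4 was 69.4%, 72.2% and 78.6% after CX5461, 67.9%, 69.0% and 74.4% after everolimus, 63.3%, 71.1% and 79.6% after the combination, and 59.7%, 61.9% and 64.7% after vehicle. CX5461 and everolimus mice did not overlap vehicle mice, and combination mouse 3, with the lowest share, did. The share of Igkv12-46 ran from 10.8% to 17.8% after CX5461, 10.9% to 18.2% after everolimus and 9.68% to 19.9% after the combination, against 19.5% to 27.3% after vehicle. Polysomal shares of Igkv3-4 ran from 69.9% to 80.8%, 67.8% to 79.2% and 64.9% to 81.6% after CX5461, everolimus and combination, against 61.8% to 65.5% after vehicle, and again the combination range alone overlapped the vehicle range.

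The level of Igkv3-4 itself was not called against vehicle in any acute comparison. Its lowest, median and highest input level was 332, 495 and 553 CPM after CX5461, 429, 443 and 532 after everolimus, 337, 420 and 556 after the combination, and 399, 417 and 488 CPM after vehicle, and all groups overlapped. Igkv12-46 had 75.7, 95.5 and 111 CPM after CX5461, 78.1, 113 and 115 after everolimus, 62.7, 82.0 and 142 after the combination, and 128, 144 and 193 CPM after vehicle. In CPM, only combination mouse 3, at 142 CPM, reached into the vehicle range. CPM lack the TMM scaling that edgeR's test uses. In the fit of both fractions, TMM factors were 0.623 in CX5461 mouse 4 and 0.740 in everolimus mouse 2. Vehicle input libraries had 0.853 to 0.977. A lower factor raises the scaled level, so the gap in CPM is not read as a gap on that scale. The log2 fold change of Igkv12-46 was -0.61 ± 0.17 for CX5461 (adjusted p = 0.138), -0.51 ± 0.17 for everolimus (adjusted p = 0.218) and -0.87 ± 0.17 for the combination (adjusted p = 0.00506) in edgeR's test, with the same 6 vehicle mice in all 3. The combination call held in all 12 fits that left out 1 mouse.

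**Figure D4:**
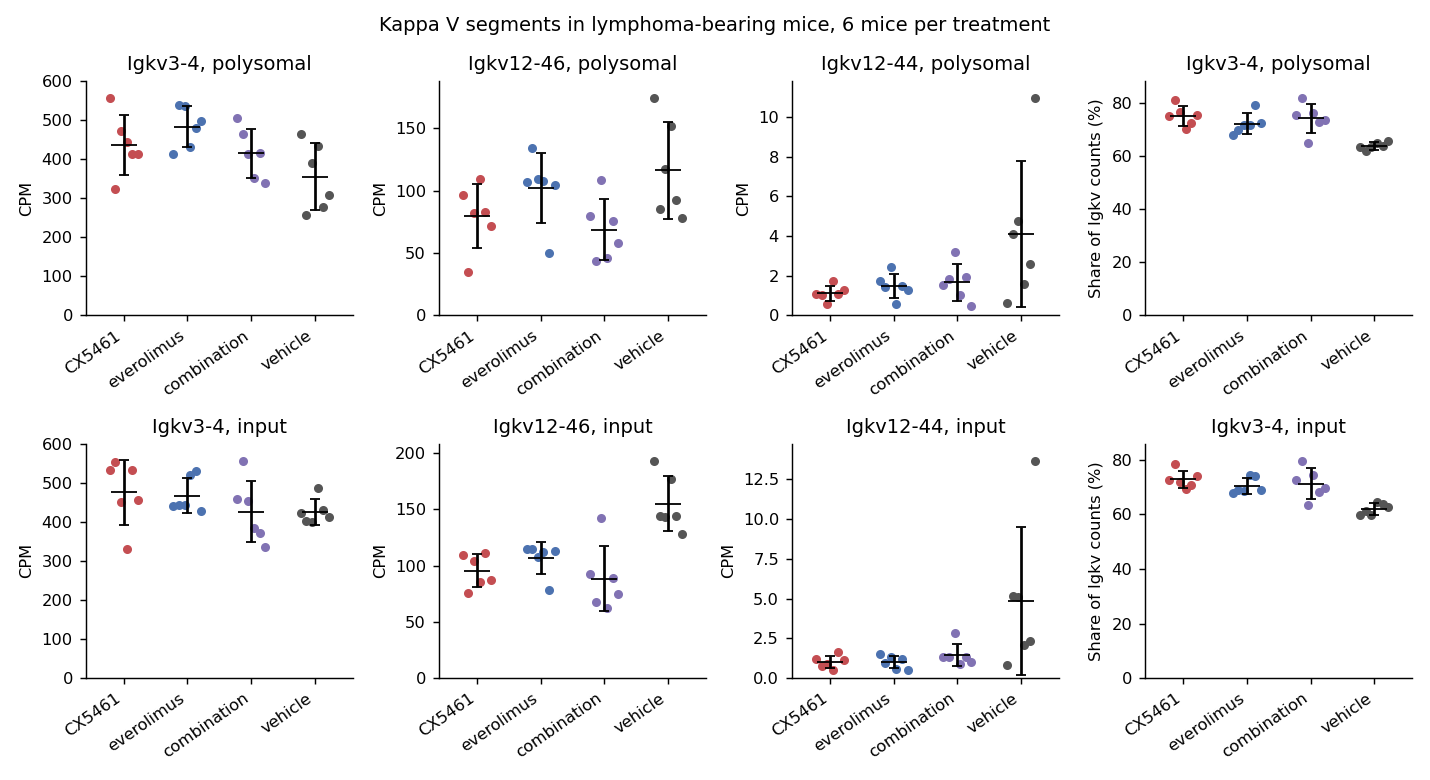
Levels of Igkv3-4, Igkv12-46 and Igkv12-44 in CPM and the share of Igkv3-4 among Igkv counts in percent, 1 point per mouse with the mean and SD of 6 mice, in polysomal RNA (top) and input RNA (bottom). Levels of Igkv3-4 overlap between all groups, while Igkv12-46 in input RNA lies at 75.7 to 111 CPM after CX5461 and 128 to 193 CPM after vehicle. These CPM are without TMM scaling.

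In acute input RNA, 8 of 53 tested segments passed for the combination against vehicle, 1 higher and 7 lower, against 7.48% of all genes (3.31% higher, 4.17% lower). For CX5461 1 of 53 passed, lower, against 0.399% of all genes (0.0125% higher, 0.386% lower), and 9 of 53 had an unadjusted p under 0.05 (9.72% of all genes). For everolimus 1 of 53 passed, lower, against 0.106% (0.0436% higher, 0.0623% lower), and 13 of 53 had an unadjusted p under 0.05 (14.4% of all genes). The median log2 fold change of the tested segments was -0.42 for CX5461, -0.26 for everolimus and -0.33 for the combination, where all genes had a median of 0.00 in each comparison. The segment called for CX5461 and for everolimus was Igkv12-44, at -2.12 ± 0.44 (adjusted p = 0.0315) and -2.22 ± 0.44 (adjusted p = 0.0349). Its level was 0.508, 1.02 and 1.61 CPM (lowest, median, highest) after CX5461, 0.496, 1.07 and 1.498 after everolimus, 0.896, 1.32 and 2.81 after the combination and 0.812, 3.72 and 13.7 CPM after vehicle. All groups overlapped, vehicle mouse 6 stood highest, and these calls were lost in 9 and 8 of 12 fits that left out 1 mouse.

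For the combination, Igkv4-86 fell by 2.15 ± 0.37 on the log2 scale (adjusted p = 0.00157). It had 0.110, 0.305 and 0.597 CPM (lowest, median, highest) after the combination, against 0.824, 1.17 and 2.55 CPM after vehicle, with no overlap between lowest vehicle and highest combination mouse and with its call held in all 12 fits that left out 1 mouse. Igkv8-19 was the segment that rose, by 1.48 ± 0.41 (adjusted p = 0.0333), with 0.637, 1.55 and 2.97 CPM after the combination, against 0.287, 0.428 and 1.40 CPM after vehicle. These groups overlapped, and the call was lost in 7 of 12 such fits. Igkv12-44 fell by 1.76 ± 0.42, Igkv1-135 by 1.19 ± 0.32, Igkv16-104 by 1.97 ± 0.61, Igkv8-27 by 2.73 ± 0.77 and Igkv6-13 by 3.93 ± 1.01 on the log2 scale. Those 5 each lost their call in 1 to 9 of the 12 fits, and Igkv8-27 had 8.07 CPM in vehicle mouse 3 alone, above the next vehicle mouse at 1.30 CPM. Vehicle mice 2, 3 and 5 carried Igkv6-13 and Igkv16-104, with 94, 53 and 43 counts of Igkv6-13 and 118, 104 and 66 of Igkv16-104. Combination mice had 0 to 5 counts of Igkv6-13 and 5 to 22 of Igkv16-104, and vehicle mice 1, 4 and 6 had 1, 2 and 2 of Igkv6-13 and 4, 7 and 30 of Igkv16-104.

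In acute polysomal RNA, edgeR's test called 4 of 46 segments for the combination (1 higher, 3 lower), against 7.42% of all genes (4.46% higher, 2.95% lower). Igkv8-19 rose by 1.98 ± 0.44 (adjusted p = 0.0134), Igkv4-86 fell by 2.32 ± 0.49 (adjusted p = 0.0118), Igkv12-46 fell by 0.89 ± 0.25 (adjusted p = 0.0342) and Igkv8-27 fell by 2.72 ± 0.84 (adjusted p = 0.0474). The calls of Igkv8-19 and Igkv4-86 held in all 12 fits that left out 1 mouse, and those of Igkv12-46 and Igkv8-27 were lost in 7 and 8. For CX5461 edgeR called 0 of 46, against 0.878% of all genes (0.169% higher, 0.709% lower), and for everolimus 0 of 46, against 0.150% (0.0455% higher, 0.104% lower). There, 11 of 46 segments had an unadjusted p under 0.05 in each, against 16.1% of all genes for CX5461 and 10.9% for everolimus. DESeq2 called 2 segments for CX5461 (2.55% of all genes) and 0 for everolimus (0.696%). Igkv12-46 had 35.0, 82.4 and 109 CPM after CX5461, 49.8, 107 and 134 after everolimus, 43.5, 66.9 and 108 after the combination, and 77.8, 105 and 174 CPM after vehicle, so polysomal groups overlapped.

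Total kappa RNA did not separate the acute groups. Summed Igkv input counts ran from 478 to 751 CPM after CX5461, 623 to 719 after everolimus and 484 to 716 after the combination, against 657 to 753 CPM after vehicle. Igkc had log2 fold changes of -0.01 ± 0.07, -0.09 ± 0.07 and -0.06 ± 0.07, and neither Igkc nor Rag1 was called in any of the 6 acute comparisons by edgeR's test. Segments outside subfamilies 3 and 12 together held 4.68% to 9.56% of the input Igkv counts after CX5461, 4.96% to 10.1% after everolimus, 5.64% to 11.5% after the combination and 7.21% to 13.6% after vehicle. Marker lists were read beside them in input RNA. The mature or follicular B cell list (8 genes) stood at 209 to 423 CPM after CX5461, 298 to 445 after everolimus and 378 to 439 after the combination. Vehicle mice overlapped each of these, at 316 to 400 CPM. Cultured naive lines, of the other clone, had 98.7 to 174 CPM of this list. The summed T cell list (14 genes, none at 0) stood at 56.2 to 99.6 CPM after CX5461 and 80.9 to 137 after everolimus. It stood at 83.1 to 121 after the combination and 106 to 134 CPM after vehicle. The plasma cell list (9 of 10 genes in the table, none at 0) stood at 305 to 500, 342 to 475 and 352 to 512 CPM after CX5461, everolimus and combination, and 442 to 515 CPM after vehicle. In polysomal RNA its counts were mostly Irf4, Mzb1 and Xbp1 (4204, 2797 and 1009 in CX5461 mouse 1, against 93 of Sdc1). Cultured naive lines had 544 to 704 CPM of this list in input RNA, so it does not mark other cells alone. The summed NK cell list (8 genes) stood at 5.48 to 8.04 CPM after CX5461, 6.75 to 10.8 after everolimus and 4.79 to 8.21 after the combination, against 8.58 to 11.5 CPM after vehicle in input RNA, so CX5461 and combination mice lay below every vehicle mouse. They did so in polysomal RNA as well, at 6.43 to 8.41 CPM after CX5461 and 4.85 to 8.13 after the combination, against 8.46 to 12.9 CPM after vehicle. In input RNA, 5, 3, 6 and 3 of the 8 NK genes averaged under 1 CPM after CX5461, everolimus, combination and vehicle. The myeloid list stood at 292 to 541 CPM after CX5461, 348 to 579 after everolimus and 376 to 514 after the combination. Vehicle mice, at 414 to 454 CPM, overlapped each of these. The stroma and endothelium list stood at 1026 to 1648, 1097 to 2067 and 1266 to 1552 CPM, and vehicle mice overlapped them at 949 to 1485. The part of these cells in the kappa results was not tested. Everolimus mice 1 and 3 had the closest input libraries of 276 pairs (chi-square per degree of freedom 1.18 over Igkv, 2.35 over all genes). Their polysomal libraries were also the closest pair over Igkv, at 2.11 against a median of 9.42. Over all genes those differed at 59.0, against a median of 47.1. Both were kept as separate mice, and whether they share a source was not tested.

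Polysomal and input RNA of the same mouse or line were then compared, which asks how strongly a transcript is represented among mRNAs with 4 or more ribosomes. In the acute vehicle mice, 28 of 64 tested segments passed, all 28 lower in polysomal RNA, against 56.9% of all genes (24.7% higher, 32.2% lower). Igkv3-4 stood at -0.47 ± 0.10 (adjusted p = 0.000243), Igkv12-46 at -0.63 ± 0.10 (adjusted p = 1.9e-06) and Igkc at -0.29 ± 0.08 (adjusted p = 0.0017) on the log2 scale in edgeR's test with mouse as a block. The median of the tested segments was -0.49, and that of all genes -0.07. After CX5461 29 of 64 passed, all lower, against 58.8% of all genes (27.2% higher, 31.6% lower). After everolimus 20 passed, all lower, against 54.5% (25.2% higher, 29.3% lower), and after the combination 17, all lower, against 56.8% (27.8% higher, 29.0% lower). Igkv3-4 had -0.50 ± 0.10 after CX5461, -0.29 ± 0.10 after everolimus and -0.31 ± 0.10 after the combination.

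In the relapse lines most segments that passed were higher in polysomal RNA. In naive lines 7 of 49 tested segments passed, 6 higher and 1 lower in polysomal RNA, against 44.1% of all genes (23.0% higher, 21.1% lower). In CX5461 lines 19 passed, 17 higher and 2 lower, against 49.6% (22.7% higher, 26.9% lower). Of these lines, 14 and 39 have the polysomal libraries that stand apart, and they alone form the last run of that table. A library difference and a group value cannot be told apart there. In everolimus lines 8 passed, all higher, against 54.0% (27.2% higher, 26.8% lower), and in combination lines 9, 8 higher and 1 lower, against 46.2% (23.6% higher, 22.6% lower). Igkv1-117 stood at 0.61 ± 0.21 in naive lines (adjusted p = 0.0317). Igkv5-43 stood at 0.17 ± 0.20 in CX5461 lines (adjusted p = 0.513), 0.66 ± 0.20 in everolimus lines (adjusted p = 0.0159), 0.79 ± 0.20 in combination lines (adjusted p = 0.00697) and 0.13 ± 0.26 in naive lines (adjusted p = 0.839). Igkv12-44 was higher in polysomal RNA in every group, by 2.33 ± 0.19 in CX5461, 1.72 ± 0.20 in everolimus, 1.64 ± 0.18 in combination and 1.01 ± 0.24 in naive lines (adjusted p = 1.35e-05, 2.91e-05, 3.76e-05 and 0.00612 by edgeR's test with line as a block); whether the drug groups differ from naive lines in this was not tested. The naive calls of Igkv1-117 and Igkv12-44 were both lost without naive line 33, and that of Igkv1-117 also without naive line 38. Without the block, 7 segments passed in vehicle mice, against 43.2% of all genes, and 0 in naive lines, against 40.8%.

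The summed Igkv counts gave the same split between the studies. The log2 of polysomal over input, scaled with TMM factors, averaged -0.54 ± 0.39 after CX5461, -0.32 ± 0.25 after everolimus, -0.37 ± 0.18 after the combination and -0.51 ± 0.10 after vehicle (SD, 6 mice each). It averaged 1.29 ± 0.39 in CX5461, 0.50 ± 0.18 in everolimus, 1.01 ± 0.31 in combination and 0.65 ± 0.06 in naive lines (SD, 3 lines each). CX5461 lines 14 and 39, whose polysomal libraries stand apart, had 1.54 and 1.48, and CX5461 line 20 had 0.85. On this scale all 12 lines were above 0, and all mice but 1 everolimus mouse were below 0. On the CPM scale all 12 lines were again above 0, but 4 of 6 CX5461, 3 of 6 everolimus, 4 of 6 combination and 5 of 6 vehicle mice were below 0. The CPM means lay higher, at -0.16 after CX5461, 0.01 after everolimus, -0.09 after the combination and -0.33 after vehicle, and at 2.00 in CX5461, 1.24 in everolimus, 1.68 in combination and 1.21 in naive lines, so the sign for everolimus mice flips with the scaling. The difference between the studies was not tested; they differ in clone, in mice against cultured lines and in their tables, which cannot be told apart.

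**Figure D5:**
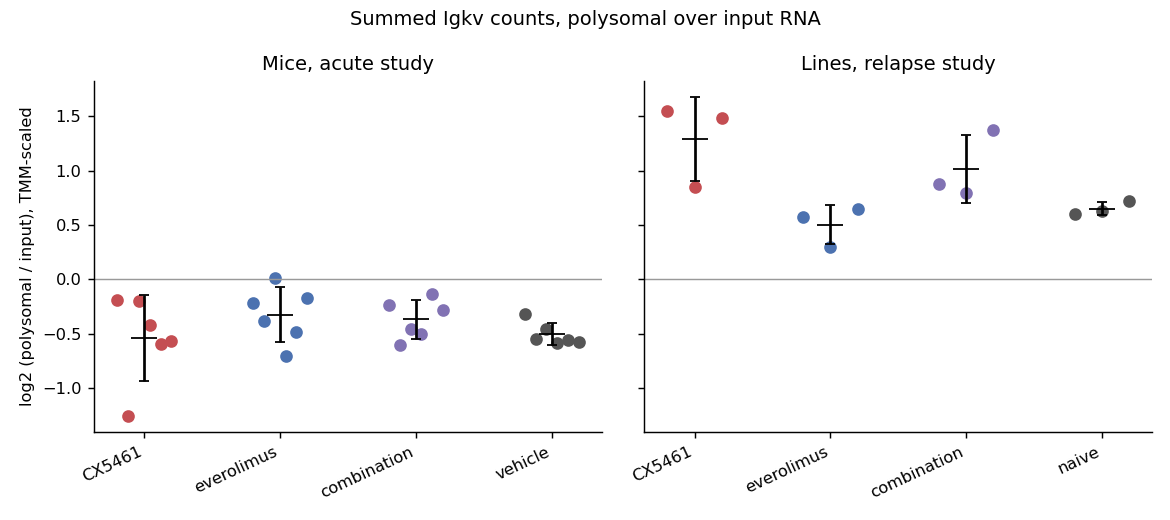
Log2 of polysomal over input for the summed Igkv counts (vertical axis, TMM-scaled), 1 point per mouse or line with the mean and SD of each group, for the acute mice (left) and the relapse lines (right). Acute mice lie from -1.26 to 0.02 and relapse lines from 0.30 to 1.54.

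Segments whose levels ranked most like a leader were relatives in some cases and not in others. Across the 12 relapse input libraries, Igkv1-122 (Spearman's rho 0.91) and Igkv1-110 (0.87) ranked most like Igkv1-117, Igkv5-45 (0.93) like Igkv5-43, and Igkv4-61 (0.94) and Igkv4-78 (0.92) like Igkv4-79. Igkv5-48 (0.82), of another subfamily, ranked most like Igkv4-53. Across the 12 polysomal libraries, Igkv12-89 (0.87), Igkv17-127 (0.83) and Igkv9-129 (0.83), all of other subfamilies, ranked most like Igkv1-117. Across the 24 acute input libraries, Igkv3-12 (0.90) ranked most like Igkv3-4, and Igkv1-88 (0.69), a segment of another subfamily, ranked most like Igkv12-46. These libraries share their tables and groups, and relatives can share reads, so the values are descriptions only.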

How the data were processed

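Input and polysomal RNA of 24 acute mice and 12 relapse lines was measured by ribodepleted single-end RNA-seq with 50-base reads, per the labels' protocols. The deposited tables hold whole-number read counts per gene; TopHat2, HTSeq and GRCm38 are named in the submitters' processing notes, without versions, and the annotation used for counting and its strand setting are not given in the sources used here. Rows that name no gene were left out of library totals; in the acute tables the no-feature row alone held 5.79% to 26.0% of a column. Precision follows the total counts, and intervals cover counting error only.

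Counts were tested per table with edgeR 4.0.16 (R 4.3.3): TMM scaling, filterByExpr, 4 groups in 1 quasi-likelihood model and Benjamini-Hochberg adjustment over all genes tested, with 0.05 as the threshold. Polysomal and input libraries were compared with the mouse or line as a block, since the labels give both libraries the same number. Over Igkv shares, the input library was most like its own polysomal library in 24 of 24 mice and 12 of 12 lines. DESeq2 1.42.0, other size factors, no filter, the compared groups alone and left-out libraries were alternatives. CPM are scaled to all counts in genes of a library. Shares have Wilson intervals. Fold limits for counts near 0 use a floor of 3 counts over the group. Annotation and sequences came from GENCODE M21, on GRCm38. The procedure was tested on simulated data.

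The members and the lists were chosen with earlier results of these data known. Segments were named when they led a library, when they were among the 5 largest of a table, or when they passed a test, the 5 with the largest change each way. Igkv10-96, Igkv6-23 and Igkv8-28 fall outside these rules for the comparisons of treatments and were chosen after their values were seen, and segments were also named for ranking most like a leader.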

Additional observations from a re-analysis of the deposited data

Results flagged for a closer look

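In the acute groups of 6 mice, 96 groups of values were checked for a mouse that stands apart (by Dixon's criterion on the gap to the nearest mouse), and 14 did; chance alone gives about 1 in 20. In input RNA these were vehicle mouse 4 for Igkv3-4 (488 CPM), CX5461 mouse 5 (0.538 CPM), everolimus mouse 5 (1.52 CPM) and vehicle mouse 6 (1.40 CPM) for Igkv8-19, vehicle mouse 3 for Igkv8-27 (8.07 CPM), combination mouse 3 (2.81 CPM) and vehicle mouse 6 (13.7 CPM) for Igkv12-44, everolimus mouse 5 (78.1 CPM) and combination mouse 3 (142 CPM) for Igkv12-46, and CX5461 mouse 4 for Igkc (290.3 CPM). CX5461 mouse 4 is the input library with the largest share of Gm26870 and Gm10800. In polysomal RNA they were everolimus mouse 2 for Igkv6-13 (0.660 CPM), combination mouse 5 (0.806 CPM) and vehicle mouse 3 (7.67 CPM) for Igkv8-27, and everolimus mouse 5 for Igkv12-46 (49.8 CPM). Everolimus mouse 5 for Igkv12-46 and vehicle mouse 3 for Igkv8-27 stood apart in both fractions.

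With TMM scaling, the log2 of polysomal over input of the summed Igkv counts was above 0 in all 3 naive lines and below 0 in all 6 vehicle mice, a difference of 1.15 between their means. On the CPM scale 5 of 6 vehicle mice were below 0, and the means were 1.21 in naive lines and -0.33 in vehicle mice. The difference was not tested, and the studies differ in clone and in culture.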

How the results depend on the processing

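Counts of called segments are given here where they moved by more than 1.5 times. Shares in parentheses are of all genes with an adjusted p under the same setting. DESeq2 called 3 segments in acute input for CX5461 (1.06%), 4 for everolimus (0.932%), 2 in acute polysomal for CX5461 (2.55%), 7 for the combination (10.7%), 11 in relapse input for everolimus (19.5%), 9 and 17 in relapse polysomal for everolimus (1.61%) and combination (16.2%), and 17 in the acute vehicle comparison of fractions (43.7%). Without a filter on low counts there were 2 in acute input for CX5461 (0.225%) and for everolimus (0.0484%), 2 in acute polysomal for CX5461 (0.269%), 23, 22 and 20 in relapse input for CX5461 (4.10%), everolimus (5.85%) and combination (6.51%), and 24, 3 and 17 in relapse polysomal for CX5461 (7.74%), everolimus (0.102%) and combination (3.34%). With the compared groups alone there were 0, 0 and 5 in acute input for CX5461 (0.230%), everolimus (0.0906%) and combination (4.42%), 1 and 2 in acute polysomal for CX5461 (1.37%) and combination (7.12%), and 9 and 6 in relapse polysomal for CX5461 (3.14%) and everolimus (0.866%). RLE size factors left 0 in relapse polysomal for everolimus (0.101%). Mice of different groups share only a number: same-numbered mice had a mean correlation of 0.05 in input (from -0.57 to 0.49) and -0.01 in polysomal RNA, and 4 and 5 of 24 were most like a mouse of their own number. With the replicate block the counts were 0 in acute input for everolimus (0.0934%) and 1 in acute polysomal for CX5461 (0.911%). Those of the other acute comparisons with vehicle did not move by more than 1.5 times. With no replicate block, the comparison of fractions called 7 segments in vehicle mice (28 with it; 43.2%) and 0 in naive lines (7 with it; 40.8%). Leaving out 1 library gave 0 to 1, 0 to 1 and 2 to 10 in acute input for CX5461, everolimus and combination, 0 to 1, 0 to 0 and 2 to 6 in acute polysomal, 5 to 11, 1 to 8 and 7 to 15 in relapse input, 6 to 27, 0 to 5 and 4 to 12 in relapse polysomal, and 1 to 9 in the naive comparison of fractions; the low end of relapse input for everolimus came without everolimus line 12, and that of relapse polysomal for CX5461 without naive line 33. The remaining settings were chosen after seeing the data. Without the 3 input libraries rich in Gm26870 and Gm10800, 0 were called for CX5461 (0.00610%) and 0 for everolimus (0.0366%), and without vehicle mice 2, 5 and 6 the fractions of vehicle mice gave 13 (41.2%). Without CX5461 lines 14 and 39, relapse polysomal RNA gave 5, 3 and 25 for CX5461 (3.41%), everolimus (0.486%) and combination (21.2%). With the run of columns in the deposited tables as a term, relapse input gave 17 for everolimus (30.4%), and relapse polysomal gave 8, 11 and 26 for CX5461 (5.39%), everolimus (3.64%) and combination (26.6%). CX5461 lines 14 and 39 alone form the last run of the polysomal table, so in both settings the polysomal CX5461 values rest on line 20 alone, which is assumed to vary like the other groups. Igkv4-62 in relapse polysomal RNA for CX5461 was of the other sign there, at -1.05 with that term and -0.85 without CX5461 lines 14 and 39; it was 4.68 with all lines. The cause of these moves was not tested. Counted over segments with at least 50% unique windows, 4 relapse lines were led by Igkv1-117, as with all segments, and 7 of 12 lines had the same leader; Igkv5-43 and Igkv4-79 fall under that minimum. Counted by subfamily, 6 lines were led by subfamily 4. Depth limits the segments with few counts most. Only 31 of 100 listed segments could be tested in relapse input RNA, at a median library total of 20.5 M. In acute input RNA 53 of 104 were tested at a lower median of 19.0 M, so depth alone does not give this order.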
